A study of Mus musculus with 12 samples.

Results

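The IFNγ/LPS response of 2 mRNAs that encode immune checkpoint ligands was followed in mouse striatal cells with a normal or an expanded huntingtin gene. The genes were chosen by symbol: Cd274, which encodes PD-L1, Pdcd1lg2, which encodes PD-L2, and Lgals9, which encodes galectin-9. Of the 3 names, Cd274 and Lgals9 had a row among the 29428 genes of the expression table, and Pdcd1lg2 was not analysed here. Cd274 was selected on its measured level, which rose with treatment and rose further in cells with the expanded gene, so its values are given below as a description, without a test.

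STHdhQ7 and STHdhQ111 are immortalized striatal lines whose huntingtin carries 7 or 111 glutamines on both alleles, and each genotype is represented by 1 line, so that genotype and line cannot be told apart. Nontreated cells gave the groups Q7-C and Q111-C. Cells given 100 ng/mL murine IFNγ and 5 μg/mL LPS for 24 h gave the groups Q7-T and Q111-T, and each group holds 3 poly(A) RNA-seq libraries. IFNγ and LPS were always given together, so the share of each in a response cannot be separated.

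PD-L1 is a surface protein that binds PD-1 on T cells and restrains their activation, and PD-L2 is a second ligand of the same receptor. IFNγ raises PD-L1 in many cell types through JAK1 and JAK2 and the transcription factor IRF1, and LPS can add to this through TLR4 and NF-κB. Galectin-9 is a sugar-binding protein that is also inducible by interferon; TIM-3, encoded by Havcr2, is the best known of its receptors on T cells.

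The 12 libraries held between 57505990 and 96417834 estimated counts. Low counts favoured multiples of 4, as if each read pair added about 4 counts, which would correspond to 14376498 to 24104458 read pairs per library. By the distance over all tested genes, 11 libraries were nearest to a library of their own group, whereas Q7-T replicate 2 was nearest to Q7-C replicate 1; where leaving it out ended a call described below, the value without it is given. Ptprc, the pan-leukocyte marker, stayed at or below 0.00642 TPM (TPM is a length-corrected share of a library's transcripts). Neuronal and striatal markers summed to 65.3 to 105.0 TPM in Q7-C and 90.3 to 161 for Q7-T. They summed to 26.2 to 30.6 TPM in Q111-C and 43.7 to 53.6 for Q111-T. The leading gene was Nes in Q7-C (54.6 TPM), Tubb3 in Q7-T (74.6) and Q111-T (24.7), and Foxp1 in Q111-C (10.5). Of the 5 tested, 0 were called higher and 2 lower between nontreated lines (7.62% and 7.61% of all tested genes). Between treated lines 1 was higher and 2 were lower (13.3% and 11.2%). Bcl11b, another striatal factor of this list, reached at most 0.0407 TPM. The mesenchymal markers, led by Vim, summed to 4420 to 5180 TPM in Q7-C, 3400 to 3900 for Q7-T, 4250 to 4460 for Q111-C and 1730 to 2060 for Q111-T. Of these 7 genes, 3 were called lower with treatment in each line (1.11% of all tested genes in STHdhQ7 and 2.96% in STHdhQ111). Between lines, 4 were higher and 2 lower without treatment (7.62% and 7.61%) and 4 higher and 3 lower with it (13.3% and 11.2%). The astrocyte markers, led by Slc1a3, summed to 1.04 to 1.93 TPM in Q7-C, 1.29 to 1.77 for Q7-T, 8.97 to 11.0 for Q111-C and 3.94 to 4.94 for Q111-T. The part of these lists in the results below was not tested.

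Cd274 mRNA was scarce in nontreated cells of both genotypes and abundant after IFNγ/LPS, with the highest level in treated STHdhQ111 cells. In Q7-C the 3 libraries held 0.512, 0.411 and 0.668 TPM, and in Q111-C they held 1.07, 0.609 and 0.725 TPM. In Q7-T the values were 20.6, 6.41 and 16.7 TPM, and in Q111-T they were 68.9, 53.2 and 55.2 TPM. All 6 treated libraries thus lay above all 6 nontreated ones, all Q111-T libraries lay above all Q7-T libraries, and the nontreated groups overlapped.

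The group means of Cd274, with the SD over 3 libraries, were 59.1 ± 8.57 TPM for Q111-T, 14.6 ± 7.35 for Q7-T, 0.80 ± 0.237 for Q111-C and 0.530 ± 0.129 for Q7-C. At its lowest the gene was counted 55 times in a library and at its highest 9011 times, so the nontreated levels rest on 14 to 30 read pairs per library if each adds 4 counts. In Q7-C the mean exceeded that of 13.4% of the 16127 tested genes, and in Q111-T that of 87.9%. The nontreated groups are neighbours in the order of levels and did not separate beyond their spread.

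**Figure D1:**
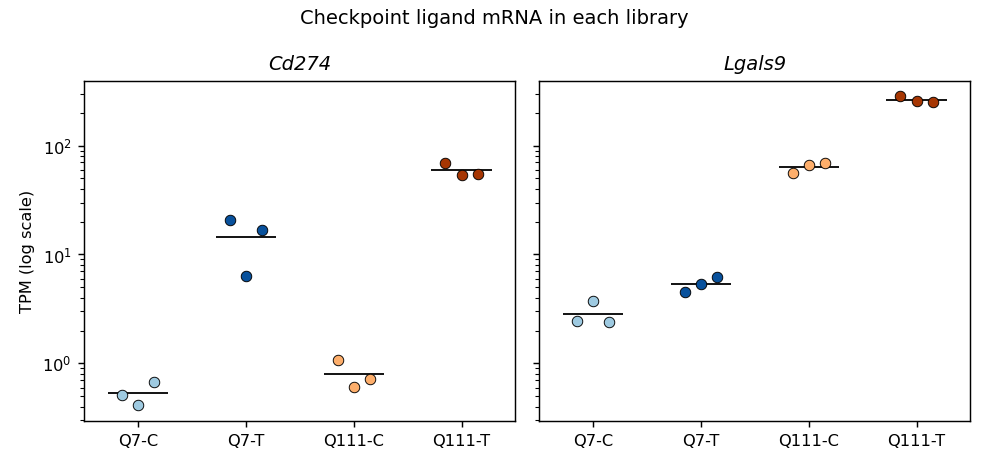
TPM of Cd274 (left) and Lgals9 (right) in each of the 12 libraries on a log axis, with 3 points per group and a line at the group mean. Cd274 lies between 0.411 and 1.07 TPM in all nontreated libraries of both genotypes, whereas every STHdhQ111 library holds more Lgals9 than any STHdhQ7 library.

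In the edgeR fit, Cd274 changed by a log2 fold change of 4.85 (SE 0.335) in Q7-T versus Q7-C and of 6.29 (SE 0.355) in Q111-T versus Q111-C. Between genotypes the log2 fold change was 0.27 (SE 0.302) without treatment and 1.71 (SE 0.287) with treatment. The response in STHdhQ111 exceeded that in STHdhQ7 by 1.44 log2 units (SE 0.414). These contrasts chose the gene and are not tests of it. For reference, 4.04% of tested genes were called differentially expressed genes (DEGs: a fold change of 2 or more with an adjusted p below 0.05) in Q7-T versus Q7-C, 11.2% in Q111-T versus Q111-C, 15.2% in Q111-C versus Q7-C, 24.5% in Q111-T versus Q7-T, and 4.71% (3.52% higher in STHdhQ111) for the difference between the responses.

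The size of the Cd274 difference between genotypes moved with single libraries. Q7-T replicate 2 held the lowest treated value, 6.41 TPM, and without it the log2 fold change was 5.09 in STHdhQ7 and the excess in STHdhQ111 was 1.21. Without Q7-T replicate 1, the highest of that group, the excess was 1.64. It was 1.71 without Q111-C replicate 1 and 1.25 without Q111-C replicate 2, and the other libraries left out gave values between these.

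Lgals9 had a different profile: it was already high in nontreated STHdhQ111 cells and rose with IFNγ/LPS from there. The Q7-C libraries held 2.43, 3.75 and 2.41 TPM, and the Q7-T libraries held 4.49, 5.36 and 6.26 TPM. The Q111-C libraries held 56.4, 66.2 and 69.3 TPM, and the Q111-T libraries held 282, 257 and 250 TPM. No 2 groups overlapped, and the order of levels was Q7-C, Q7-T, Q111-C and Q111-T.

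Its means, with the SD over 3 libraries, were 263.0 ± 16.8 TPM for Q111-T, 64.0 ± 6.73 for Q111-C, 5.37 ± 0.883 for Q7-T and 2.86 ± 0.772 for Q7-C. The coefficient of variation was 27.0% in Q7-C and 6.40% in Q111-T, where Lgals9 ranked 357 among tested genes by mean TPM. Groups of 3 were free of overlap in 14.4%, 49.6%, 51.4% and 46.3% of tested genes for the treatment effect in STHdhQ7, that in STHdhQ111, the nontreated genotypes and the treated genotypes, so separation by itself was common.

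Between nontreated groups Lgals9 was upregulated in STHdhQ111 by a log2 fold change of 4.16 (SE 0.273, adjusted p = 1.11e-06), and between treated groups by 5.16 (SE 0.285, adjusted p = 4.02e-07; edgeR quasi-likelihood test with Benjamini-Hochberg adjustment), or 5.43 without Q7-T replicate 2. IFNγ/LPS upregulated it in STHdhQ111 by 2.15 (SE 0.248, adjusted p = 9.31e-05 in edgeR). An exact permutation test of 3 against 3 libraries gave its smallest possible two-sided p, 0.1, for each of these pairs. On the TPM scale the genotype ratio was 22.4 ± 6.47 without treatment, compared with a fitted fold of 17.8; the median tested gene differed by 0.27 log2 units in TPM and by -0.02 after TMM scaling. Markers of macrophages, microglia and dendritic cells, 10 of 12 in the table, had 3 tested genes, of which 1 was called higher in Q111-C versus Q7-C and 2 in Q111-T versus Q7-T (7.62% and 13.3% of all tested genes). With treatment, 1 was lower in STHdhQ7 (1.11%), and 1 was higher and 1 lower in STHdhQ111 (8.28% and 2.96%). Their summed level was 18.0 to 20.8 TPM in Q7-C, 12.1 to 18.3 for Q7-T, 32.9 to 38.1 for Q111-C and 46.9 to 62.9 for Q111-T. The sum was led by Tmem119 without treatment and by Cd68 with it, with 2 or 3 genes per group at or above 0.5 TPM and Ptprc and Adgre1 at or near 0; their part in the Lgals9 values was not tested.

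The response of Lgals9 in STHdhQ7 was smaller and less certain. It was called at a log2 fold change of 1.14 (SE 0.247, adjusted p = 0.0184 in edgeR, 0.000411 to 0.234 over 21 alternatives). The call was lost without Q7-C replicate 3 (log2 fold change 0.96) and without Q7-T replicate 2 (0.88). The response in STHdhQ111 exceeded that in STHdhQ7 by 1.00 (SE 0.342, adjusted p = 0.123), which was not a call; without Q7-T replicate 2 the excess was 1.26 with an adjusted p of 0.0212 in edgeR.

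**Figure D2:**
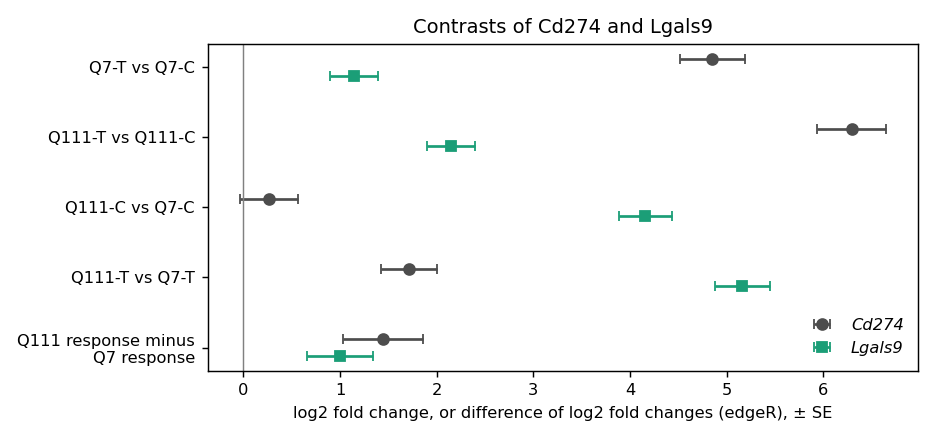
Log2 fold changes of Cd274 (circles) and Lgals9 (squares) in the edgeR fit for 4 pairs of groups and for the difference between the 2 responses, with standard errors. Cd274 lies far from 0 in both treatment contrasts and near 0 (0.27) between the nontreated genotypes, where Lgals9 lies at 4.16.

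The balance of the transcripts, which TPM allows because it is per length, turned over with treatment in STHdhQ7 only. Lgals9 exceeded Cd274 by 4.74, 9.13 and 3.6 times in Q7-C and by 52.9, 109 and 95.5 times in Q111-C. In Q7-T the ratio was 0.218, 0.836 and 0.374, below 1 in every library. In Q111-T it was 4.09, 4.82 and 4.54.

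Cd274 (ENSMUSG00000016496) lies on the plus strand at chr19:29367455-29388095 of GRCm38, with 1 annotated transcript of 7 exons. The antisense gene Gm36043 overlaps it and did not pass the expression filter. It held 0 to 0.0207 TPM in Q7-C, 0 to 0.386 in Q7-T, 0 to 0.107 in Q111-C and 0.139 to 1.40 in Q111-T. Lgals9 (ENSMUSG00000001123) lies on the minus strand at chr11:78962974-78984946, with 4 annotated transcripts, 3 of them coding, of up to 11 exons. The promoters are shown because both genes rose with IFNγ/LPS in STHdhQ111. Each stretch runs from 250 bases before the start to 30 bases after it (RefSeq, GRCm38.p6; Lgals9 at chr11:78984895-78985174 on the minus strand, Cd274 at chr19:29367188-29367467 on the plus strand), and capitals mark matches to paired IRF half-sites.
Lgals9: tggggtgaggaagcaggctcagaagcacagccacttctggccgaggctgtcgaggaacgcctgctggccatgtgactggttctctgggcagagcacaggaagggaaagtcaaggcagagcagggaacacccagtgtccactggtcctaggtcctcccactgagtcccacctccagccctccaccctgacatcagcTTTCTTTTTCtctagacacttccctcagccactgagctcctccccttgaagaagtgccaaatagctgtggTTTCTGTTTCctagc
Cd274: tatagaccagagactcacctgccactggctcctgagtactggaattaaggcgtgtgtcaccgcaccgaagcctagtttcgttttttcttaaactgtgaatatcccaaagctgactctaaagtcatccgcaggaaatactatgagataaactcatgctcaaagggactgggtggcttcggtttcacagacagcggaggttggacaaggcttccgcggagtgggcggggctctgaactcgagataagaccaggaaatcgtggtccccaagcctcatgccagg

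The paired half-sites were searched as GAAA, any 2 bases and GAAA, on both strands in windows of 300 bases, which add 20 bases at the 3′ end of those shown. Lgals9 held 2 matches, TTTCTTTTTC beginning 55 bases before the start and TTTCTGTTTC beginning 15 bases after it, and 3.44% of 32851 promoter windows held at least 1. Neither window held the GAS element TTCNNNGAA (8.3% of windows), the NF-κB motif (8.46%) or the E-box CACGTG (7.15%), and the Cd274 window held no paired half-sites. A match describes these letters only.

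Other ligands of the checkpoint family were followed as a list chosen with earlier results of these data known. Of 21 names, 14 passed the filter on low values. In Q7-T versus Q7-C, 4 were called higher and 1 lower (2.93% and 1.11% of all tested genes), and in Q111-T versus Q111-C, 7 were higher and 0 lower (8.28% and 2.96%). The median log2 fold change of the list was 0.40 and 1.17 in these contrasts, against 0.003 and -0.005 over all tested genes. The 5 calls in STHdhQ7 became 3 and 1 in limma on log2(TPM + 0.5) and log2(TPM + 1) and 3 with only the 2 groups. They include Icosl, whose call (1.59) was lost without any single Q7-C library, Q7-T replicates 2 (1.47) or 3, Q111-C replicate 2 or Q111-T replicate 3, at 1.37 to 1.72. The Icosl call was also lost with no filter (1.56), a replicate block (1.59), only the 2 groups (1.60) and in limma (0.38 and 0.22).

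H2-T23, which encodes the nonclassical MHC molecule Qa-1 that engages the inhibitory receptor NKG2A, rose in both lines, by 3.29 (SE 0.202) in STHdhQ7 and 2.87 (SE 0.199) in STHdhQ111 on the log2 scale. Cd40, a costimulatory receptor of antigen-presenting cells, rose by 2.56 (SE 0.349) and 2.73 (SE 0.355) from levels of at most 0.22 TPM. Nectin2, a ligand of TIGIT and CD226, rose by 1.23 (SE 0.173) in STHdhQ7 and 1.08 (SE 0.172) in STHdhQ111, the latter call being lost without Q111-C replicate 1 (0.98). None of these 3 genes had a called difference in response.

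Among the ligands above the detection floor in nontreated cells, Cd80 differed most between the lines. CD80 is the classical B7 ligand of CD28 and CTLA-4 and can also bind PD-L1 on the same membrane. Its libraries held 0.984, 1.80 and 1.81 TPM in Q7-C and 2.32, 1.18 and 2.19 TPM in Q7-T. They held 10.1, 13.2 and 14.4 TPM in Q111-C and 72.1, 70.6 and 80.1 TPM in Q111-T.

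The STHdhQ7 groups thus overlapped in Cd80, whereas both STHdhQ111 groups stood apart. The log2 fold change with treatment was 0.48 (SE 0.168, adjusted p = 0.163) in STHdhQ7 and 2.67 (SE 0.174, adjusted p = 1.16e-06) in STHdhQ111, and the difference was 2.18 (SE 0.237, adjusted p = 0.000443; edgeR). Of the 14 ligands, 2 were called higher in this difference, against 3.52% of all tested genes. The other was Tnfsf9, the ligand of 4-1BB, at 1.32 (SE 0.338, adjusted p = 0.043 in edgeR), a call that was lost without each of 10 single libraries, at 1.04 to 1.44, and kept without Q7-C replicate 3 or Q7-T replicate 2.

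**Figure D3:**
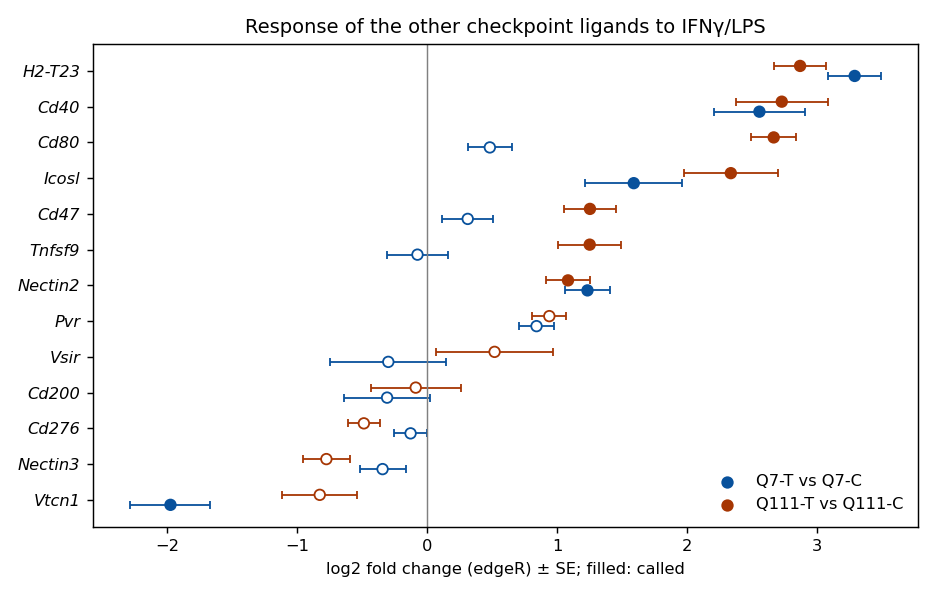
Log2 fold changes with standard errors of 13 checkpoint ligands after IFNγ/LPS in STHdhQ7 (blue) and STHdhQ111 (brown), with called changes filled. Cd80 lies at 0.48 in STHdhQ7 and 2.67 in STHdhQ111; Tnfrsf14 is left out because its nontreated libraries were at or under the detection floor.

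Without treatment, Icosl (ligand of ICOS) was upregulated in Q111-C by 2.38 (SE 0.378), and Cd276 (B7-H3) and Cd200 (ligand of CD200R) were lower, with log2 fold changes of -1.34 (SE 0.127) and -2.35 (SE 0.351). Between these groups 3 ligands were higher and 2 lower, against 7.62% and 7.61% of all tested genes; these 5 calls became 3 and 1 in the same limma settings. Between treated groups 4 were higher and 4 lower (13.3% and 11.2%), including Cd47, the ligand of SIRPα, higher in STHdhQ111 by 1.29 (SE 0.199). Those lower in STHdhQ111 include Cd276, Cd200 and H2-T23. H2-T23 held 54.6 to 65.5 TPM in Q111-T and 95.1 to 113 TPM in Q7-T, a call lost in both limma settings (-0.78 each).

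Of 20 receptors and binding partners of these ligands, 9 passed the filter. Between lines, 4 were called higher without treatment and 4 with it, and 0 lower (7.62% and 13.3% of all tested genes called higher). The first count was 2 in limma on log2(TPM + 1), and the second 2 without Q7-T replicate 3 or Q111-T replicates 2 or 3. With treatment, 1 was higher in STHdhQ7 and 2 in STHdhQ111 (2.93% and 8.28%). Tnfrsf9 held 1.54 to 1.84 TPM in Q111-C and 0.0379 to 0.193 TPM in Q7-C. Pdcd1, the PD-1 gene, had 0 counts in all Q7-C libraries, 0, 8 and 10 in Q7-T, 8, 8 and 30 in Q111-C, and 58, 71 and 51 in Q111-T. Q111-T held 0.820, 1.11 and 0.946 TPM. Pdcd1 passed the filter only through these libraries, so its higher level there, and its part in the counts above, is a description and not a result. Havcr2 did not pass the filter, with 0 to 27 counts per library.

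Rgmb, a binding partner of PD-L2, was expressed at 1.03 to 3.33 TPM, and its log2 fold change was -0.26 (SE 0.189) in STHdhQ7 and 0.14 (SE 0.189) in STHdhQ111. Cd44, which galectin-9 can bind, rose by 1.40 (SE 0.149) in STHdhQ111, from 43.4, 43.8 and 45.2 TPM to 111, 102 and 114 TPM. In STHdhQ7 it went from 38.0, 57.4 and 64.2 to 75.9, 31.4 and 62.5 TPM, groups that overlapped, and the difference in response was 1.17 (SE 0.207, adjusted p = 0.00746 in edgeR), a call lost in limma on log2(TPM + 0.5) and log2(TPM + 1) (1.26 and 1.25, adjusted p = 0.112 and 0.103). The T cell list had 1 of 6 markers in the table, Cd4, which reached 0.0533 TPM at most; whether rare immune cells add to Pdcd1 was not tested, and in bulk RNA fewer cells of a type and less RNA per cell cannot be told apart.

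Of 14 genes in the pathway from the IFNγ receptor to Cd274, all tested, 7 were called higher in Q7-T versus Q7-C and 8 in Q111-T versus Q111-C, against 2.93% and 8.28% of all tested genes, and 0 were lower in either (as counted in the edgeR fit). Irf8, an interferon-inducible transcription factor, rose by 6.18 (SE 0.451) and 6.23 (SE 0.454), and Socs1, a feedback inhibitor of JAK signalling, by 3.83 (SE 0.616) and 3.4 (SE 0.603). Irf1, the interferon-induced transcription factor, rose by 4.15 (SE 0.208) and 3.61 (SE 0.203). Between lines, 5 of the 14 were called higher without treatment and 3 with it, and 0 lower (7.62% and 13.3% of all tested genes called higher). The second count was 5 in both limma settings. Irf1 was called higher without treatment, at 43.3 ± 3.86 TPM (SD) in Q111-C and 15.4 ± 3.74 in Q7-C.

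Irf2, a relative of Irf1 that can compete with it for DNA, held 3.22, 3.85 and 4.61 TPM in Q7-C and 5.89, 1.89 and 6.04 TPM in Q7-T. It held 5.40, 6.41 and 5.84 TPM in Q111-C and 17.8, 20.5 and 18.7 TPM in Q111-T. Only the STHdhQ111 groups separated, and the responses differed by 1.47 (SE 0.33, adjusted p = 0.0238 in edgeR). That call was lost without Q7-C replicate 3 (1.41), any single Q111-C library (1.41, 1.5 and 1.44) or Q111-T replicate 2 (1.29), and in both limma settings (1.52 and 1.44).

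Jak2, the kinase bound to the IFNγ receptor, had a log2 fold change of 0.49 (SE 0.294) in STHdhQ7 and 1.08 (SE 0.296, adjusted p = 0.0252 in edgeR) in STHdhQ111. The latter call was lost without any single Q111-C library (1.03, 1.02 and 1.12) and without Q111-T replicates 1 (1.04) or 3 (0.97), and in both limma settings (0.95 and 0.93). Ifngr1, the ligand-binding chain of the receptor, was at 17.4 to 39.3 TPM in all libraries with a log2 fold change of -0.09 (SE 0.14) and 0.03 (SE 0.14). Its partner Ifngr2 was upregulated in Q111-T over Q7-T by 1.20 (SE 0.137).

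**Figure D4:**
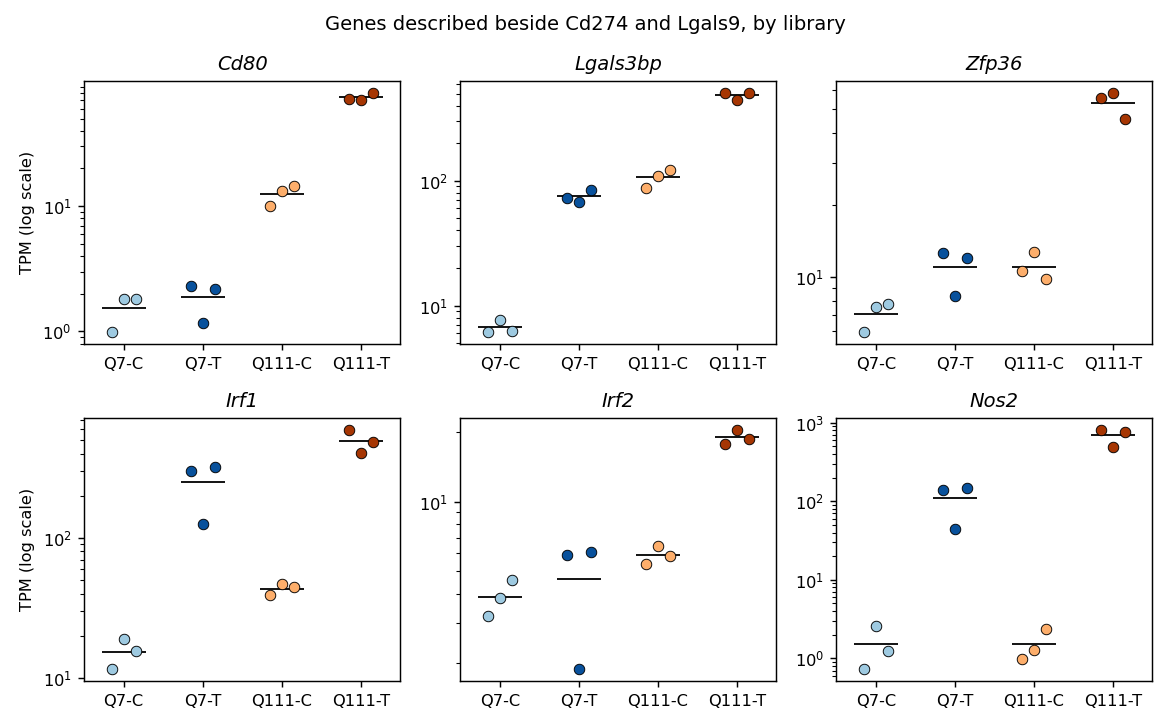
TPM of 6 genes in each library on log axes that differ between panels, with lines at group means. Cd80, Irf2 and Nos2 are higher in every Q111-T library than in every Q7-T library.

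Of 14 genes of the LPS and NF-κB pathway, 5 were called higher in Q7-T versus Q7-C and 4 in Q111-T versus Q111-C (2.93% and 8.28% of all tested genes). The count in STHdhQ7 was 1 in both limma settings and with only the 2 groups compared. It was 2 without Q7-T replicate 1 or 3 and 3 without any single Q7-C library. Nfkbia, which encodes the inhibitor IκBα, rose by 1.52 (SE 0.23) in STHdhQ7 and 2.43 (SE 0.237) in STHdhQ111. Cd14, the LPS co-receptor, was 15.0 to 16.2 TPM in Q111-C and 2.54 to 3.30 TPM in Q7-C, a log2 difference of 2.04 (SE 0.253), and Tlr4 was higher by 1.49 (SE 0.312).

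Regulators of PD-L1 protein or mRNA were called at shares near those of all tested genes, 4.04% in STHdhQ7 and 11.2% in STHdhQ111. Of 21 genes, 0 were higher and 1 lower in STHdhQ7, and 1 was higher and 1 lower in STHdhQ111 after treatment in the edgeR fit. The gene higher was Zfp36, which encodes tristetraprolin, a protein that destabilizes AU-rich mRNAs: it held 10.7, 12.8 and 9.80 TPM in Q111-C and 55.8, 58.4 and 45.6 TPM in Q111-T. Its log2 fold change was 2.38 (SE 0.176) in STHdhQ111 and 0.82 in STHdhQ7, and the difference was 1.56 (SE 0.238, adjusted p = 0.00327 in edgeR).

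Cmtm6, which protects PD-L1 from degradation, was upregulated in Q111-T over Q7-T by 1.07 (SE 0.235), a call lost without Q7-T replicate 2 (0.83). B3gnt3, a glycosyltransferase that acts on PD-L1, had log2 fold changes of -1.85 (SE 0.417) in STHdhQ7 and -1.46 (SE 0.408) in STHdhQ111. It was the lower gene in both lines, and without Q7-T replicate 2 the count in STHdhQ7 was 2. The first call was lost without Q7-C replicate 1 (-1.52) or Q7-T replicates 1 (-1.90) or 3 (-1.72), with no filter (-1.88), with only the 2 groups (-1.84) and in limma (-0.92 and -0.60). The second was lost without Q111-C replicates 1 (-1.53) or 2 (-1.25) or Q111-T replicates 2 (-1.31) or 3 (-1.37), with no filter (-1.48) and in limma (-0.90 and -0.64).

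Among the 7 other galectins and galectin-binding proteins that passed the filter, 2 were called higher with treatment in each line and 0 lower, against 2.93% (STHdhQ7) and 8.28% (STHdhQ111) of all tested genes called higher. The median log2 fold change of the list was 0.08 in STHdhQ7 and -0.58 in STHdhQ111, with 4 and 3 of the 7 genes above 0. Lgals8, a galectin that senses damaged endosomes, rose by 1.23 (SE 0.16) in STHdhQ7 and 1.67 (SE 0.161) in STHdhQ111. Lgals3bp, a secreted galectin-3-binding glycoprotein, rose by 3.70 (SE 0.211) in STHdhQ7 and 2.28 (SE 0.198) in STHdhQ111, a difference of -1.41 (SE 0.269, adjusted p = 0.0107 in edgeR). Its libraries held 443 to 505 TPM for Q111-T, 87.9 to 123 for Q111-C, 68.0 to 84.0 for Q7-T and 6.11 to 7.69 for Q7-C, in the same order of groups as Lgals9.

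Lgals3 shared the genotype difference of Lgals9 but not its response. It was 42.2 to 56.8 TPM in Q7-C and 779 to 824 TPM in Q111-C, a log2 fold change of 3.64 (SE 0.383, adjusted p = 3.65e-05 in edgeR). With treatment its log2 fold change was 0.08 (SE 0.345) in STHdhQ7 and 0.01 (SE 0.344) in STHdhQ111. Of the 7 genes, 2 were called higher and 0 lower between nontreated lines (7.62% and 7.61% of all tested genes). Between treated lines 3 were higher and 2 lower (13.3% and 11.2%). Among those lower was Lgals1, at 897 to 1248 TPM in Q111-T and 3054 to 9343 TPM in Q7-T.

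The profile most like that of Cd274, by Pearson correlation of log2(TPM + 0.5) over the 12 libraries, was that of Gm4951 (r = 0.991), followed by Gm18853, Nos2, Gbp5 and Ccl2 (r = 0.989 each). The libraries share group, line and depth, and the correlation is a description: 1.48% of tested genes had r above 0.9 and the median gene had -0.01. Nos2 encodes inducible nitric oxide synthase, Gbp5 an interferon-inducible GTPase and Ccl2 a monocyte chemokine. For Lgals9 the most alike were Ptges (r = 0.996), Gypc (0.992), Rhbdf2, Wnt11 and Glipr1 (0.991 each), with 5.07% of genes above 0.9.

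The genes alike to Cd274 had nontreated means at or below 1.53 TPM in both lines, except Ccl2 (91.7 and 120.3 TPM), and those alike to Lgals9 had means at or below 1.65 TPM in both STHdhQ7 groups. Gbp5 averaged 0.335 TPM in Q7-C, 0.423 in Q111-C, 30.4 in Q7-T and 94.1 in Q111-T. Ptges, the inducible prostaglandin E synthase, averaged 118 TPM for Q111-T, 20.4 for Q111-C, 1.32 for Q7-T and 0.515 for Q7-C. The correlation between Cd274 and Lgals9 was 0.516.

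Within 250 kb of Cd274, 7 of 10 neighbouring genes passed the filter; 0 were called in Q7-T versus Q7-C in edgeR, and 3 were higher and 1 lower in Q111-T versus Q111-C, against 4.04% of all tested genes called in the first contrast and 8.28% higher and 2.96% lower in the second. Jak2 lies 54.4 kb from Cd274. Insl6, a relaxin-family gene 42.1 kb away, rose by 1.92 (SE 0.395, adjusted p = 0.00507 in edgeR) in STHdhQ111, from 1.45, 2.88 and 2.53 TPM to 6.93, 8.97 and 8.39 TPM. Plgrkt, which starts 0.065 kb from Cd274 on the opposite strand, went from 16.8 to 18.6 TPM to 30.0 to 35.2 TPM in STHdhQ111, a log2 fold change of 1.00 at the edge of the threshold. That call was lost without Q7-C replicates 2 or 3 (0.98 each), Q7-T replicate 2 (1.00), Q111-C replicates 2 (0.94) or 3 (0.95) or Q111-T replicate 2 (0.81). It was also lost in RLE scaling, with no filter, with the filter of 1 TPM, in DESeq2, with the replicate block (0.98 to 0.99) and in limma (0.87 and 0.85), so the count of 3, which also holds Jak2, depends on single libraries and on these settings.

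The neighbourhood of Lgals9 was examined after the values were seen. Nos2 ends 2.72 kb from the end of Lgals9 and is transcribed towards it. It held 0.733, 2.58 and 1.23 TPM in Q7-C and 0.967, 1.26 and 2.35 TPM in Q111-C. It held 140, 43.8 and 146 TPM in Q7-T and 817, 498 and 759 TPM in Q111-T.

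Nos2 therefore did not share the high nontreated level that Lgals9 had in STHdhQ111: the log2 fold change of Q111-C versus Q7-C was -0.25 for Nos2 and 4.16 for Lgals9. The responses of Nos2 were 6.31 (SE 0.511) and 8.90 (SE 0.571). Lyrm9, Ccnq and Ksr1, the other tested neighbours, had no called response to treatment in either line.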

How the data were processed

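RNA was measured in 12 libraries of STHdhQ7 and STHdhQ111 cells, 3 in each of 4 groups assigned from the labels. Per the labels and the study's methods, the authors trimmed reads with Cutadapt and aligned them with HISAT2 (GRCm38), and StringTie then estimated the abundance of transcripts. The authors deposited 1 table with, per gene and library, TPM and an estimated count, which was rounded to whole numbers. Multiples of 4 were favoured among low estimated counts in every library, so counting error is larger than the counts imply; dividing them by 4 was an alternative. The authors' TPM summed to 688352 to 719623 per library.

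The 16127 of 29428 genes that reached 0.5 TPM in 3 or more libraries were tested in 1 edgeR 4.0.16 quasi-likelihood fit with TMM scaling and a mean per group. A call needed a p below 0.05 after Benjamini-Hochberg adjustment and a log2 fold change of 1 or more in size. The standard error was the log2 fold change over the square root of F. The difference in response was (Q111-T minus Q111-C) minus (Q7-T minus Q7-C). Groups of 3 were also compared with an exact permutation test, whose smallest two-sided p is 0.1. Detection needed more than 12 estimated counts (3 read pairs of 4 counts) in at least 1 library of a group.

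The study calls the 3 libraries of a group biological replicates, but neither it nor the labels say whether they came from separate cultures, so p-values measure only the spread between these libraries, which may be technical. The fit was tested on simulated data with known changes.

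The members, lists and named genes were chosen with earlier results of these data known. The text names the members, some of the called list genes with large changes and those with a role beside PD-L1 or galectin-9. It also names the 5 genes most correlated with each member, and some genes within 250 kb. Other called list genes are not described. Alternatives were RLE scaling, no filter, a filter of 1 TPM, DESeq2, limma on log2(TPM + 0.5) and log2(TPM + 1), only the 2 groups compared, a replicate term and leaving out each library. A gene of the lists is not reported here.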

Additional observations from a re-analysis of the deposited data

Results flagged for a closer look

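The response to IFNγ/LPS differed between the lines for 9 of the genes named in the report, in the edgeR test of the difference itself. Of all tested genes, 4.71% were called in this difference. Some of the 9 were named because they were called, so their number follows from the choice of genes. Each value is the log2 fold change in STHdhQ111 minus that in STHdhQ7. The response was larger in STHdhQ111 for Cd80 (2.18), Zfp36 (1.56), Cd44 (1.17), Irf2 (1.47) and Tnfsf9 (1.32). It was smaller for Lgals3bp (-1.41).

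Near the members, the difference was 2.59 for Nos2, beside Lgals9, whose neighbours were examined after the values were seen. That call was lost without Q7-C replicate 2 (2.03), Q111-C replicates 1 (2.35) or 2 (2.44) and Q111-T replicates 1 (2.48) or 3 (2.54). It was -1.17 for Rcl1, 224 kb from Cd274, and -1.12 for Gm5518, 207 kb from Cd274. The Gm5518 call was lost without each of 11 libraries, at -0.90 to -1.19, and was kept without Q7-T replicate 2.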

How the results depend on the processing

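Over the alternatives, 297 values of the members and of the DEG counts stayed as reported (those of Cd274, which is not tested, by size alone) and 7 moved; of the Lgals9 values 5 fell below a threshold and 3 passed one, and none reversed. On the log2(TPM + 0.5) and log2(TPM + 1) scales limma gave smaller Cd274 changes, 3.73 and 3.21 in Q7-T versus Q7-C and 5.52 and 5.06 in Q111-T versus Q111-C, since the added constant compresses low levels. The Cd274 difference in response was 1.21 to 1.71 without single libraries. The Lgals9 response in STHdhQ7 was no longer a call in limma (0.82 and 0.73) or with only the 2 groups (1.15), and was 0.88 to 1.36 without single libraries. The Lgals9 difference in response became a call in limma (1.22 and 1.30) and was 0.78 to 1.26 without single libraries. DEGs in Q7-T versus Q7-C numbered 414 in limma on log2(TPM + 1) and 394 with only the 2 groups, against 651, and for the difference in response DESeq2 gave 1299 against 760. The causes were not tested. The deviations of same-numbered libraries from their group means had correlations of -0.416 to 0.303. With 3 libraries per group these cannot decide whether replicate numbers pair the libraries. With a replicate block the Lgals9 changes were 1.13, 2.14, 4.17 and 5.19, and the difference in response was 1.01. DEGs then numbered 570 in Q7-T versus Q7-C and 626 for the difference. With the block the differences in response of Irf2 (1.48), Tnfsf9 (1.29) and Gm5518 (-1.10) were no longer calls. Those of Tnfsf9 (1.33) and Gm5518 (-1.12) were also lost with no filter, and that of Gm5518 in limma (-0.97 in both settings). In limma on log2(TPM + 1), Cd40 (0.68 and 0.69 in STHdhQ7 and STHdhQ111), Nectin2 (0.98 and 0.93), Icosl (0.66), Cd276 (-0.99) and Cd200 (-0.59) between nontreated groups, and Lgals8 in STHdhQ7 (1.00, adjusted p = 0.115) were not calls.

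Of 98 called contrasts of genes chosen from the lists and neighbourhoods, some not named in the text, 61 were lost in no alternative. Of the 98, 19 were lost without at least 1 library and none reversed. Nontreated Cd274 rested on 55 to 121 counts per library, which limits what can be seen between the nontreated groups.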
